A study of Capsella rubella with 6 samples.

Results

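Parental expression was measured in hybrid endosperm of *Capsella rubella* from the cross Cr B x Cr A, in which the accession Cr75.2 (Cr B) was crossed with Cr48.21 (Cr A). The 2 endosperm RNA libraries of this cross, of 6 samples in the series, were taken by their labels. Per the labels' protocols, female flowers were emasculated and pollinated by hand 2 days later, seeds were taken at 6 days after pollination, and the endosperm dissected from 300 to 500 seeds was pooled for each replicate. The reciprocal cross, Cr A x Cr B, was raised and sampled in the same way and gave 2 further libraries, used below only for comparison. The other 2 samples were leaf DNA of the parents. The labels name no mutation or treatment in either cross. Names were read as female x male, which the labels do not state. The maternal allele is then that of Cr B and the paternal allele that of Cr A in every gene, so within this cross the parent and the accession of an allele cannot be told apart.

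Endosperm is the seed tissue that feeds the embryo. It forms when a sperm cell fertilises the central cell, which brings more maternal than paternal genomes, so a gene transcribed equally from each genome copy yields more maternal RNA. In imprinted genes transcription depends on the parent an allele came from. In plants imprinting is known mainly from the endosperm, where DNA methylation and Polycomb marks differ between the maternal and the paternal copies. Genes expressed mainly from the mother are called maternally expressed, and those with an excess of paternal RNA paternally expressed.

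Alleles were told apart at polymorphic sites between the accessions, and the authors' maternal and paternal read counts were summed over the sites of each gene interval. Of 12641 intervals with a site, 7385 (58.4%) had at least 20 allelic reads in each library of Cr B x Cr A and were tested. Replicate 1 held 8828316 allelic reads in genes and replicate 2 held 10864896, against 7549075 and 10913804 in the Cr A x Cr B replicates. Tested genes had a median of 303 reads in replicate 1 and 423 in replicate 2. A read over several sites enters once per site, so the counts are of base observations rather than molecules. Genes are given by scaffold, first and last base and strand, as the authors list them, on a genome build not given in the sources used here. The intervals could not be matched to gene names, so no role of a gene and no marker of seed coat, embryo or endosperm is reported, and the labelled tissue was not checked.

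Most genes were read from both parents, somewhat on the maternal side of the dosage of 2 maternal genomes to 1 paternal. Per gene, the maternal share of allelic reads had a median of 69.7% in replicate 1 and 72.3% in replicate 2, or 71.0% ± 1.86 (SD, n = 2), where 2 to 1 gives 66.7%. The middle 50% of genes ran from 63.4% to 76.3% in replicate 1 and from 66.9% to 78.2% in replicate 2. Over the 6990 genes also read in Cr A x Cr B, the medians were 69.6% and 72.2% in Cr B x Cr A and 69.3% and 67.8% in Cr A x Cr B. The nearest libraries of the crosses thus lay closer to each other than to their own replicates. The smallest two-sided p that an exact permutation test of 2 libraries against 2 can give is 0.333, so this difference was not tested. In a bulk sample, fewer cells of a type and less RNA per cell cannot be told apart.

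**Figure D1:**
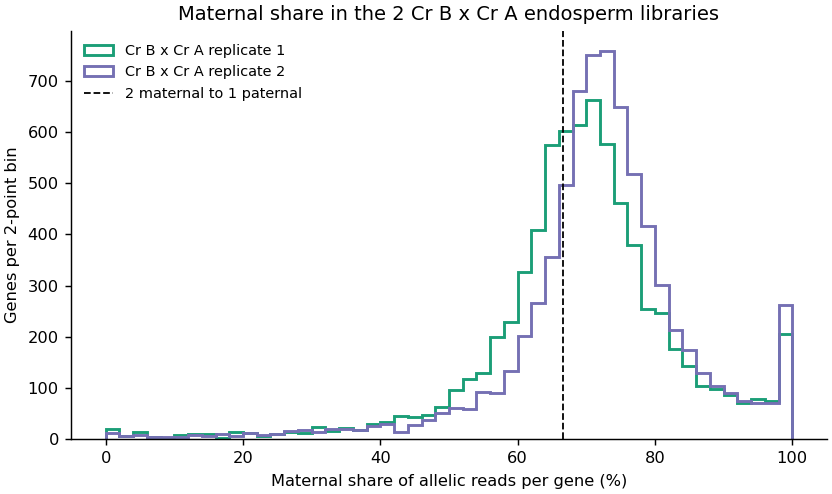
Maternal share of allelic reads (x axis, percent) against the number of genes in bins of 2 points (y axis) for 7385 genes in each Cr B x Cr A library. Both curves peak near the dashed line at 66.7%, with medians of 69.7% and 72.3%, and both rise again in the last bin below 100%.

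The replicates placed most genes alike but not at the same level. Across genes, which are not independent replicates, the shares of the libraries correlated with r = 0.717. The share was higher in replicate 2 in 4807 genes (65.1%), and the median absolute difference was 5.25 percentage points. In 467 genes (6.32%) the libraries differed by over 20 points. A share between 60% and 75% in both libraries was seen in 2734 genes (37.0%). The replicate difference shrank with depth, from a median of 8.52 points in the 1851 genes with the fewest reads (20 to 84 in their shallower library) to 3.92 points in the 1846 deepest (816 reads or more). At the read minimum, the 244 genes whose lower library held 20 to 24 reads had median shares of 70.8% and 73.3%, and the 316 untested genes with 15 to 19 reads had 67.8% and 72.6%.

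Departure from 2 to 1 was tested with edgeR's quasi-likelihood test, with Benjamini-Hochberg adjustment over all 7385 genes and a threshold of 0.05. More maternal than 2 to 1 were 848 genes (11.5%) and less maternal 255 (3.45%), while 2250 had an unadjusted p under 0.05. On simulated counts in which each gene had its own dispersion, false calls made up more of the calls than this threshold allows, so the counts may hold more false calls than it names. Among these, genes with a maternal share of 85% or more in both libraries were called maternally expressed, and genes with 50% or less in both were called paternally expressed. This gave 457 maternally expressed genes (6.19%) and 199 paternally expressed genes (2.69%). The median gene deviated from 2 to 1 by 0.30 on the log2 scale. With the null set at the median ratio of each library instead, 404 genes were more and 283 less maternal, with 316 maternally and 180 paternally expressed. Without replicate 2, in a fit that took the spread from the Cr A x Cr B libraries too, 328 genes were more and 126 less maternal, with 287 maternally and 126 paternally expressed. Without replicate 1 these counts were 593, 149, 439 and 146.

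**Figure D2:**
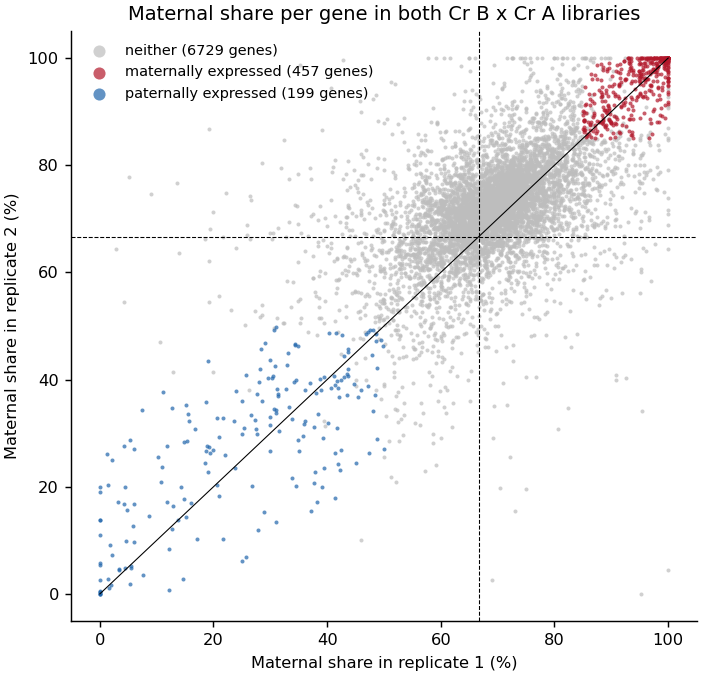
Maternal share of each of 7385 genes in replicate 1 (x axis, percent) and replicate 2 (y axis, percent) of Cr B x Cr A, with 457 maternally expressed genes in red and 199 paternally expressed genes in blue. Dashed lines mark 66.7% and the solid line equal shares. The red genes fill the upper right corner, and the blue genes spread over the lower left.

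Maternally expressed genes were read mainly from the Cr B allele, as their bound of 85% requires. Their median maternal share was 96.3%, with a mean share of 99% or more in 137 of 457 genes, 95% to 99% in 138, 90% to 95% in 97 and 85% to 90% in 85. No paternal read was found in either library in 71 genes (15.5%). At low depth this leaves room for some paternal RNA, as in the gene at scaffold 3, 9551591 to 9554870, with 25 reads in each library. They had a median of 4 sites, an interval of 1976 bp and 268 reads per library, against 3 sites, 2692 bp and 381.5 reads over all tested genes, and 92 of them were read at a single site. Of the 1851 genes with the fewest reads 8.54% were maternally expressed, and of the 1846 deepest 3.95%. The bound keeps genes by their own share in these libraries, which varies more at low depth, so these shares are given with no test.

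The 10 maternally expressed genes with the largest fitted deviation and at least 50 reads in each library (M1 to M10, in that order) stood at or next to 100% in both libraries. M1, at scaffold 4, 13086336 to 13088079, plus strand, had 1542 maternal reads in replicate 1 and 804 in replicate 2 at its single site, with no paternal read. With 3 reads as the limit for a count of 0, its paternal share could reach 0.128% (adjusted p = 0.000688, edgeR). M2, at scaffold 7, 11048097 to 11050484, minus strand, had 931 and 1192 reads over 10 sites, all of them maternal. In M10, at scaffold 7, 10275039 to 10276585, minus strand, replicate 1 had 1645 maternal reads and no paternal read, and replicate 2 had 2192 maternal reads and 1 paternal read. A paternal read was absent from both libraries in 9 of the 10 genes, with limits on the paternal share from 0.128% to 0.523%. Fitted log2 values of such genes depend on the small count that the fit adds, so they give no size. The order of M1 to M9 is that of their reads and does not rank strength of bias. With DESeq2 7 of the 10 genes missed the threshold, with adjusted p from 0.0598 to 0.147, and the other 3 passed. M3, at scaffold 4, 8707631 to 8707996, had only 50 reads in replicate 1 and missed the threshold in edgeR without replicate 2 (adjusted p = 0.0778).

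The 5 maternally expressed genes with most reads in their shallower library (MC1 to MC5) had shares from 87.5% to 99.7%. MC1, at scaffold 5, 6018196 to 6019641, minus strand, had a maternal share of 93.8% of 56352 reads in replicate 1 and 96.8% of 40338 in replicate 2. Shares at its 5 sites ran from 73.8% to 98.1%. Its maternal to paternal ratio exceeded 2 to 1 by 3.43 on the log2 scale (SE 0.30, adjusted p = 0.00184, edgeR). MC2, at scaffold 7, 4731422 to 4732126, plus strand, was the least even of them, with 87.5% of 12308 reads and 96.2% of 41350 reads at its single site. With TMM factors its adjusted p was 0.0508 in edgeR. MC3, at scaffold 8, 10153072 to 10153827, minus strand, had 99.5% of 11485 reads and 99.7% of 15441 reads from the mother. MC4, at scaffold 6, 6198054 to 6200889, plus strand, had 99.6% and 99.7% over 7 sites, each between 98.9% and 100%. In MC5, at scaffold 2, 1047690 to 1050750, minus strand, the gene's shares were 95.2% and 96.7%, but single sites among its 19 ran from 29.1% to 99.9%.

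Paternally expressed genes mostly kept some maternal RNA. The median maternal share over the 199 genes was 29.6%, with 17 genes under 5%, 14 between 5% and 10%, 89 between 10% and 33% and 79 between 33% and 50%. No maternal read was found in either library in 2 genes. The bound of 50% is wider than the maternal bound, so completeness cannot be compared between the 2 classes. Under stricter bounds of 90% and 33% in each library, 326 maternally and 91 paternally expressed genes were left. The median absolute difference between the replicates was 6.91 points, against 1.67 points in maternally expressed genes and 5.25 points over all tested genes. The maternal bound leaves less room for a difference in points, so these values cannot compare how well the 2 classes repeat. The share was higher in replicate 2 in 119 genes and lower in 78. The genes had a median of 5 sites, 2187 bp and 236.5 reads per library, and 28 were read at a single site. They made up 3.84% of the 1851 genes with the fewest reads and 1.63% of the 1846 deepest.

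Among the 10 paternally expressed genes with the largest fitted deviation (P1 to P10), the first 8 had maternal shares under 3% in both libraries. P1, at scaffold 4, 6573366 to 6576696, minus strand, overlaps another listed interval, and its reads cannot be split between them without strand. It had 1 maternal read of 2866 in replicate 1 and 2 of 4495 in replicate 2 (log2 deviation -12.11, SE 0.36, adjusted p = 0.000269, edgeR). With so few maternal reads the SE of P1, which comes from a test against the null, can be too small. P2, at scaffold 6, 13804520 to 13806933, plus strand, had 284 and 158 reads over 7 sites and no maternal read, so that its maternal share could reach 0.679%. In P4, at scaffold 2, 7862987 to 7864521, minus strand, 1 of 361 reads was maternal. P8, at scaffold 2, 2236873 to 2241290, plus strand, was the deepest of the 10, with 1.50% of 3257 reads and 2.70% of 25589 reads from the mother (log2 deviation -6.56, SE 0.32, adjusted p = 0.000376, edgeR). P9, at scaffold 3, 8748909 to 8754974, plus strand, differed between the libraries, with no maternal read of 68 in replicate 1 and 5 of 88 in replicate 2. P10, at scaffold 4, 3985540 to 3989048, plus strand, had 3.37% of 1482 reads and 4.42% of 339 reads (log2 deviation -5.67, SE 0.28, adjusted p = 0.000376, edgeR). All 10 passed the threshold in each alternative computed for them.

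The 5 paternally expressed genes with most reads in their shallower library (PC1 to PC5) were less complete, apart from PC5, which is also P8. PC1, at scaffold 2, 7693692 to 7697039, plus strand, had a maternal share of 14.8% of 53475 reads in replicate 1 and 28.3% of 37346 reads in replicate 2 (log2 deviation -2.94, SE 0.32, adjusted p = 0.00392, edgeR). PC2, at scaffold 1, 11452090 to 11454311, plus strand, had 8.74% of 13569 reads and 14.6% of 24558 reads. The maternal shares of PC3, at scaffold 3, 4192936 to 4193475, plus strand, were 47.2% and 38.9%, just inside the bound. Without replicate 2 PC3 missed the threshold in edgeR (adjusted p = 0.0729). PC4, at scaffold 4, 1665324 to 1667956, minus strand, overlaps another interval and had 23.6% and 32.3% at its single site. In PC1, PC2 and PC4 replicate 2 was the more maternal library, as in the whole set of genes, and in PC3 the less maternal.

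**Figure D3:**
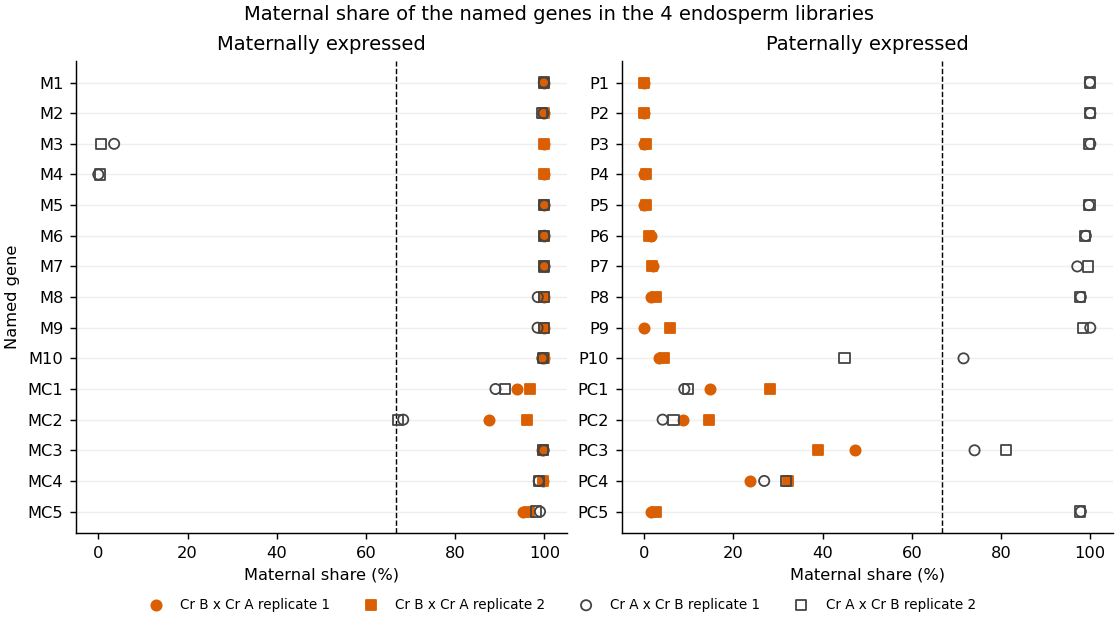
Maternal share (x axis, percent) of the named maternally expressed genes (left) and paternally expressed genes (right), with filled symbols for the 2 Cr B x Cr A libraries and open symbols for the 2 Cr A x Cr B libraries with at least 20 reads. PC5 is the same gene as P8. M3 and M4 lie at 100% in one direction and under 5% in the other, and P1 to P3 and P5 to P9 lie under 6% and above 97%.

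Past the threshold but outside the bounds were 391 genes on the maternal side, with a median share of 82.2%, and 56 on the paternal side, with 49.7%. They had more reads than the called genes, with medians of 1278.5 and 1124.5 per library. A smaller deviation needs more reads to pass the threshold, so this difference in reads is a description.

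Comparison with the reciprocal cross used the libraries of Cr A x Cr B, which had no part in the calls. Of the 457 maternally expressed genes, 407 had at least 20 reads in each of those libraries. In 188 of the 407 (46.2%) the maternal share was also 85% or more in both Cr A x Cr B libraries, a level that 5.46% of all genes read in both directions reached. In 104 (25.6%) it was 50% or less in both, against 4.41% of all genes, so the Cr B allele was favoured over Cr A in each direction. The other 115 met neither bound in both libraries. Of 192 paternally expressed genes, 47 (24.5%) were at 50% or less in both Cr A x Cr B libraries and 80 (41.7%) at 85% or more, so in these 80 the Cr A allele was favoured in each direction. The other 65 met neither bound in both libraries.

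Whether the parental ratio differed with the direction of the cross was tested as an interaction in edgeR over 6990 genes. This term is the same as that of the Cr B against the Cr A allele, averaged over parents. A higher maternal ratio in Cr B x Cr A thus stands for the Cr B allele favoured on average, and a lower one for Cr A. The log2 difference is the log2 Cr B to Cr A ratio summed over the directions. The maternal ratio was higher in Cr B x Cr A in 800 genes (11.4%) and lower in 427 (6.11%), or 17.6% in all. Among the 407 maternally expressed genes it was higher in 185 and lower in 3, and among the 192 paternally expressed genes lower in 128 and higher in 3. The calls used the Cr B x Cr A share, which favours a difference in that direction, so these counts are a description. The median gene differed by 0.15 on the log2 scale, and with that as the null 632 genes were higher and 517 lower. Leaving out single libraries changed the totals: 402 higher and 199 lower without replicate 1 of Cr A x Cr B, 279 and 197 without its replicate 2, and 488 and 362 without replicate 2 of Cr B x Cr A.

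**Figure D4:**
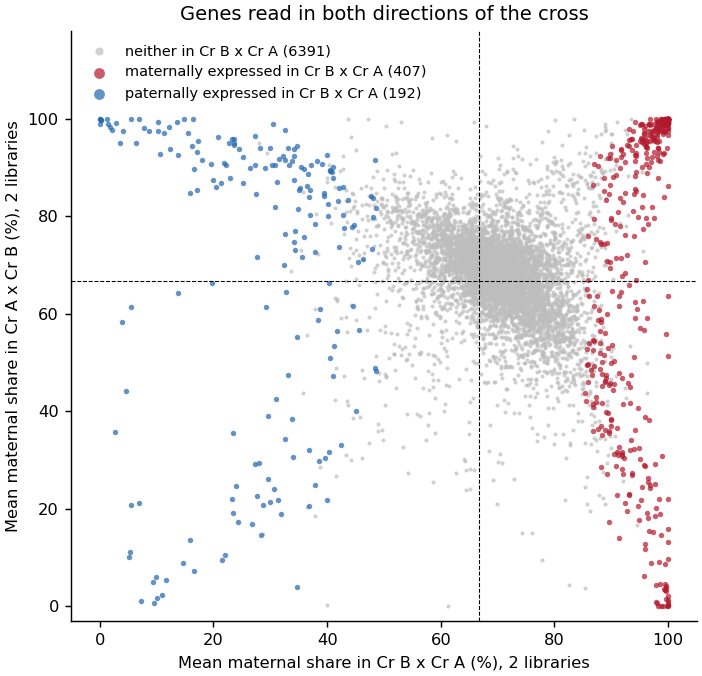
Mean maternal share over 2 libraries in Cr B x Cr A (x axis, percent) and in Cr A x Cr B (y axis, percent) for 6990 genes, coloured by their call in Cr B x Cr A. Maternally expressed genes (407) form a column on the right whose ends hold 188 genes at 85% or more and 104 at 50% or less in both Cr A x Cr B libraries, and most paternally expressed genes (192) lie on the left above the dashed line at 66.7%.

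Genes maternal in both directions had the highest shares, given here with no test. A mean share of 99% or more in Cr B x Cr A was seen in 84 of the 188 genes (44.7%), in 20 of the 104 (19.2%) and in 5 of the 115 (4.35%). The median shares in Cr B x Cr A were 98.4%, 94.99% and 90.4% in the same order, and in Cr A x Cr B 98.6%, 24.7% and 63.6%. On the paternal side the 47 genes at 50% or less in both directions had medians of 27.7% in Cr B x Cr A and 21.1% in Cr A x Cr B, and 164 reads per site and library. The 80 genes favouring Cr A in each direction had medians of 23.1% and 93.9%, and 41.3 reads per site.

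Single genes showed each of these patterns. M1, at 100% in both Cr B x Cr A libraries, had 99.9% and 100% in Cr A x Cr B. M4, at scaffold 7, 9381246 to 9384508, minus strand, had 296 and 847 reads in Cr B x Cr A, all maternal, and in Cr A x Cr B 0 of 173 and 1 of 322 reads (adjusted p of the difference 0.000494, edgeR). M3 had 3.55% of 141 reads and 0.517% of 387 reads in Cr A x Cr B (adjusted p of the difference 0.00154, edgeR). The other 8 of M1 to M10 were at 85% or more in both directions. In both Cr A x Cr B libraries, 46.2% of the 407 maternally expressed genes and 5.46% of all 6990 genes reached this level. MC2 lay at 68.4% and 67.1% in Cr A x Cr B, close to 2 to 1, with a log2 difference of 2.66 (SE 0.57, adjusted p = 0.0268, edgeR). Without Cr A x Cr B replicate 1 or 2 its adjusted p was 0.0867 or 0.110.

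Among the paternally expressed genes, P1 reversed wholly, from 3 of 7361 reads maternal in Cr B x Cr A to 99.9% and 99.97% maternal in Cr A x Cr B, where 10 of 10482 and 4 of 11877 reads were paternal. Of P1 to P10, 8 were at 85% or more in both Cr A x Cr B libraries. Of the 192 paternally expressed genes 41.7% reached this level, and of all 6990 genes 5.46%. All 9 of P1 to P10 with enough reads had a lower maternal ratio in Cr B x Cr A (edgeR, adjusted p from 7.92e-05 to 0.00355). This held in 128 of the 192 paternally expressed genes and in 6.11% of all genes tested. P1 to P10 were chosen by Cr B x Cr A reads that enter this test, so their count is a description. P4 had only 6 and 2 reads in Cr A x Cr B and was not compared. PC1 and PC2 were paternal in each direction. PC1 had 8.98% and 9.75% in Cr A x Cr B and PC2 4.12% and 6.57%, below both of their Cr B x Cr A values, with log2 differences of 1.34 (SE 0.39, adjusted p = 0.0645, edgeR) and 1.22 (SE 0.37, adjusted p = 0.0718, edgeR) that missed the threshold. PC4 had 26.9% and 31.9%, overlapping its values of 23.6% and 32.3% in Cr B x Cr A.

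Called genes were spread over all 8 large scaffolds. Maternally expressed genes made up from 5.58% of tested genes on scaffold 3 (55 of 986) to 7.24% on scaffold 2 (56 of 773). Paternally expressed genes ranged from 1.71% on scaffold 1 (20 of 1170) to 3.88% on scaffold 2 (30 of 773). The median maternal share differed less, from 69.4% on scaffold 1 to 70.3% on scaffold 4 in replicate 1.

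**Figure D5:**
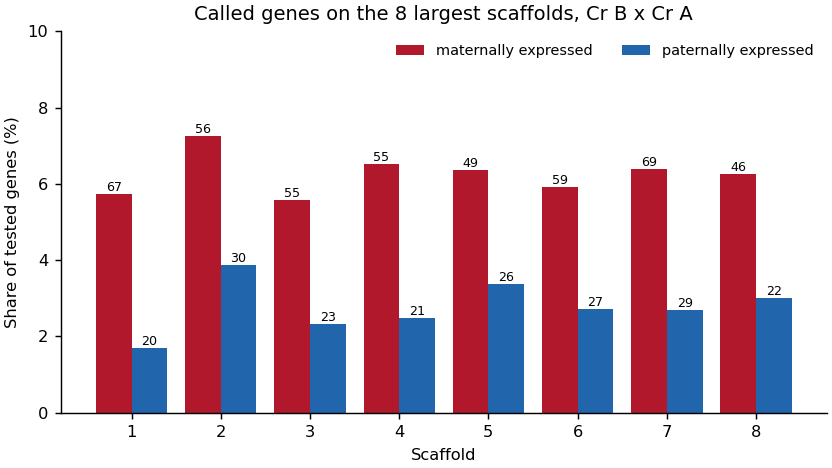
Share of tested genes (y axis, percent) called maternally expressed (red) or paternally expressed (blue) in Cr B x Cr A on each of the 8 largest scaffolds (x axis), with the number of genes above each bar. Red bars lie between 5.58% and 7.24% and blue bars between 1.71% and 3.88%.

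Some called genes were neighbours among the tested genes. Maternally expressed genes formed 32 runs of at least 2, with 67 genes (14.7% of the class), and paternally expressed genes 11 runs with 23 genes. Genes placed independently would also form runs, and no excess over that was tested, so these counts are a description. The longest held 4 maternally expressed genes at scaffold 5, 6012082 to 6031008, MC1 among them, with mean shares from 95.3% to 98.2% in Cr B x Cr A and from 90.1% to 99.9% in Cr A x Cr B. A run of 3 at scaffold 2, 2434174 to 2476926, was mixed. Its first gene had 92.2% and 99.5% in Cr B x Cr A against 18.9% and 4.69% in Cr A x Cr B, the next 72 of 80 reads and 51 of 58 reads against 52.8% and 59.2%, and the last 90.5% and 91.2% against 94.1% and 83.0%. All 3 missed the threshold with the null at the median ratio, with adjusted p of 0.0938, 0.0935 and 0.0805 in edgeR. The 3 paternally expressed genes at scaffold 6, 629524 to 638182, P6 first, had mean shares from 1.37% to 30.5% in Cr B x Cr A and from 98.9% to 100% in Cr A x Cr B. The intervals of the last 2 overlap, so they may share reads.

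Sites within a gene did not always agree. Of the maternally expressed genes, 229 had at least 2 sites with 20 reads or more in each library, and in 140 of these (61.1%) every such site was at 85% or more. For paternally expressed genes this held in 47 of 99 genes (47.5%) at the bound of 50%. Over single sites, 878 of 1109 (79.2%) and 361 of 470 (76.8%) were inside the bound of their gene. Read at the deepest site only, 436 maternally and 149 paternally expressed genes were called among 6858 tested, and 339 and 123 of these were the same genes as with all sites.

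The authors' deposited tables give each gene a p-value and a maternal ratio, in which 0.5 stands for 2 to 1. Of the 7385 genes, 2203 (29.8%) in the authors' deposited tables had p under 0.05 in both replicates with a ratio above 0.5, and 605 (8.19%) with a ratio below 0.5. Of the 457 maternally expressed genes 455 were in the first set, and the 199 paternally expressed genes were all in the second set of the authors' deposited tables. Both rest on the same reads.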

How the data were processed

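RNA of the Cr B x Cr A endosperm libraries was analysed from per-site tables. Per the file headers, the authors deposited maternal and paternal read counts per site, gene and exon intervals, and for each gene a p-value and a fraction, the maternal ratio. In replicate 1, this ratio equalled halved maternal reads over their sum with paternal reads in 100% of genes. Trimmomatic, Bowtie 1.0 and TopHat were used, per the submitters' processing notes. No genome build or allele caller is given in the sources used here. The tables name crosses by a suffix, tied to the labelled libraries by exact agreement of counts at 99.99% of sites or more, and at most 5.27% for any other library. Of 71169 sites 53665 lay in gene intervals. A preparation kit that does not mark strand was used, per the labels' protocols, and 458 tested genes (28 of those called) overlap another interval.

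Counts were summed per gene, library and parent and tested with edgeR 4.0.16 (R 4.3.3), as 4 columns with a term per library and an offset for 2 to 1, which left 1 residual degree of freedom. Standard errors are the estimate over the square root of F. They come from a test against the null, so they can be too small where an allele has few reads. The difference between directions was fitted on 8 columns of all 4 libraries. The tests were tried on simulated data for the 6990 genes read in both directions. The dispersion followed its trend over read level in 1 trial and was gene-specific in the other. DESeq2 1.42.0 was an alternative. The labels do not say whether the replicates had separate parent plants, and p-values reflect only how far the pooled samples differed. Limits for a count of 0 cover counting error only, and can be too low where a read covers several sites. Named genes were, each way, the 10 called genes with the largest fitted deviation and the 5 with most reads, the 5 with the largest difference between directions (at least 50 reads per library), and runs of at least 3. The genes, bounds and lists were chosen with earlier results of these data known. Gene lists (maternally and paternally expressed genes of Arabidopsis, seed coat, embryo and endosperm markers) could not be matched to the intervals.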

Additional observations from a re-analysis of the deposited data

Results flagged for a closer look

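In 24 of the 41 named genes the parental ratio differed between the directions of the cross in edgeR's interaction test at the adjusted threshold. Of all 6990 genes tested, 17.6% did so. Some genes were named for the largest differences between directions, and the rest by their Cr B x Cr A reads, which enter this test. The count of named genes is therefore a description. All values here are log2 differences of the maternal to paternal ratio, Cr B x Cr A minus Cr A x Cr B. They equal the log2 Cr B to Cr A ratio summed over the directions, so they measure the accession of the allele. Where an allele has no read in a library they depend on the small count that the fit adds, and are no measure of size. Higher in Cr B x Cr A were M3 (18.90), M4 (21.26), MC2 (2.66) and MC4 (1.84). To these come the genes at scaffold 3, 8755887 to 8756364 (20.94), scaffold 1, 10536735 to 10538351 (20.62), and scaffold 1, 13871947 to 13873536 (19.65). In the run on scaffold 2 the first gene had 8.35 and the second 2.67.

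The gene at scaffold 3, 8755887 to 8756364, minus strand, was maternal in 9687 of 9692 reads in Cr B x Cr A and in 0.279% and 0.0332% of reads in Cr A x Cr B. It lies beside P9, which ends at 8754974 and was paternal in Cr B x Cr A and maternal in Cr A x Cr B, so these neighbours favoured opposite alleles. The gene at scaffold 1, 10536735 to 10538351, had only Cr B reads in each of the 4 libraries, with 190 and 343 reads in Cr B x Cr A and 78 and 90 in Cr A x Cr B.

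Lower in Cr B x Cr A were P1 (-21.73), P2 (-21.77), P3 (-18.34), P5 (-16.67), P6 (-12.69), P7 (-11.89), P8 (-11.02), P9 (-11.62), P10 (-5.28) and PC3 (-2.22). At scaffold 7, 17188269 to 17189022, the value was -16.40, and in the last 2 genes of the run on scaffold 6 it was -14.13 and -7.92. Among maternally expressed genes, MC5 had -1.59, which turned to 0.55 with the deepest site only and then missed the threshold (adjusted p = 0.614, edgeR), and the second gene of the run on scaffold 5 had -4.11, with 97.7% and 98.0% in Cr B x Cr A against 100% and 99.8% in Cr A x Cr B.

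Sites outside the gene intervals also departed from 2 to 1, in data the gene comparisons do not use. Of 1869 such sites with at least 20 reads in each Cr B x Cr A library, 430 (23.0%) were at 85% maternal or more in both, and 125 (6.69%) at 50% or less. Inside genes these shares were 9.51% and 4.02% of 23664 sites. Sites of 1 transcript are not independent, so the difference was not tested.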

How the results depend on the processing

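The median maternal share ran from 70.9% to 71.5% under the other read minimums, site choices and source of the counts. Without replicate 2 of the cross it was 69.7% and without replicate 1 72.3%, and with 2 libraries such a step cannot exceed 1 SD. Genes past the threshold numbered 1103 (848 more and 255 less maternal). With the null at the median ratio there were 687 (404 more maternal) and with TMM factors 682 (408 more maternal). An exact binomial test on summed reads, which ignores the spread between libraries, gave 5054 (3907 and 1147). The deepest site alone gave 168 less maternal genes. Bounds of 90% and 33% left 91 paternally expressed genes. Leaving out a library of the cross gave 454 to 742 genes past the threshold (328 to 593 more and 126 to 149 less maternal), 287 to 439 maternally and 126 to 146 paternally expressed genes, with the lone library assumed to vary like the others. The remaining alternatives stayed within 1.5 times.

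The difference between directions was called in 1227 genes, and with the deepest site in 731 (485 higher and 246 lower). Leaving out 1 of the 4 libraries gave 476 to 992 (279 to 690 higher and 197 to 362 lower). Of 41 named genes, 25 passed in the same direction in every alternative computed and 16 missed the threshold in at least 1. The difference of MC5 reversed from -1.59 to 0.55 with the deepest site only (adjusted p = 0.614, edgeR).

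Same-numbered libraries of the crosses deviated together by r = 0.0532 in parental ratio and 0.514 in read level over 6990 genes, and 2 pairs cannot show pairing. With the replicate number as a block, 1443 genes passed (1129 and 314), with 488 maternally and 207 paternally expressed, and 1233 differed between directions (797 and 436). Causes were not tested. With 1 residual degree of freedom the spread of a single gene is known poorly, and single-site genes cannot be checked within the gene.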

Other observations

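Among the tested genes, 395 had too few reads in Cr A x Cr B to be compared, with a median of 48 allelic reads per library in Cr B x Cr A and 28 in Cr A x Cr B. Their median maternal shares in Cr B x Cr A were 73.2% and 75%. Of these genes 50 (12.7%) were maternally expressed and 7 (1.77%) paternally expressed, beside 6.19% and 2.69% of all tested genes. They are shallow by their choice, and 28 of them held 100 reads or more in each Cr B x Cr A library.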
